A study of Homo sapiens with 12 samples.

Results

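The genes described here are 34 members of the unfolded protein response of the endoplasmic reticulum (ER), picked by symbol from a list of stress sensors, transcription factors, chaperones and degradation factors. They are 34 of the 60710 gene rows of the count table, and all 34 carried enough reads to be tested. RNA was sequenced from SH-SY5Y cells, an established human neuroblastoma line, in 12 libraries. The DMSO control group received 10 µL of the solvent alone in 2 mL of medium, and the HPPE, zinc protoporphyrin and tin protoporphyrin groups received the same volume of solvent with the named compound, to 5 µM. Every well was lysed at 5 h, and each of the 4 groups holds 3 libraries. Zinc and tin protoporphyrin share a heme-like porphyrin ring and differ in the metal it holds. HPPE is known here only by its abbreviation. The title of the series concerns activators of the transcription factor NRF2, and the question addressed here is what each compound did to the ER stress genes, which that title does not name. Nothing in the labels says that the 3 libraries of a group came from separate cultures, so the p-values measure the spread between these libraries, which may be technical.

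The unfolded protein response is the signalling system by which a cell matches the folding capacity of its ER to the load of newly made secretory and membrane proteins. It has 3 sensors in the ER membrane. IRE1, encoded by ERN1, removes an intron from XBP1 mRNA so that an active transcription factor is made. PERK, encoded by EIF2AK3, phosphorylates the initiation factor eIF2 and slows protein synthesis. ATF6 moves to the Golgi, where it is cut to release a transcription factor. Their target genes encode lumenal chaperones, disulfide isomerases and the machinery that pulls misfolded proteins out of the ER for destruction. The counts are summed per gene, so they do not separate spliced from unspliced XBP1 mRNA and do not report sensor activity.

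ATF6 and the XBP1 protein are known to act through the ER stress response element (ERSE), searched here as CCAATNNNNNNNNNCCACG, and its relative ERSE-II, searched as ATTGG and CCACG with any single base between them. Both strands were searched in promoter windows from RefSeq (build GRCh38.p14) that run from 250 bases before each gene's start to 50 bases after it. Windows were found for 32 of the 34 members, all but DERL1 and PDIA3. An exact ERSE lay in 7 of the 32 windows (21.9%), against 22 of 27305 promoter windows in all (0.0806%). ERSE-II lay in 3 of the 32 (9.38%), against 0.0549% of all. The part of ERSE that many other promoters hold is its CCAAT box, which lay in 27 of the 32 windows (84.4%) and in 35.7% of all. The XBP1-type letters TGACGTGG lay in 2 of the 32 (DNAJC10 and HYOU1), against 0.795% of all, and in HYOU1 they overlapped an ERSE-II. The ERSE stretches of 6 members and 1 ERSE-II, that of HERPUD1, are printed below in the direction of the gene, with the motif in capitals and 8 bases on each side, to set them beside the members' values. CGTGG before ATTGG is the same element read on the other strand. The list opens with the 3 members that were higher with HPPE than with DMSO and hold an ERSE.
HSPA5, chr9:125241383-125241417, minus strand: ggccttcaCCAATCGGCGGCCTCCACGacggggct
HSP90B1, chr12:103930208-103930242, plus strand: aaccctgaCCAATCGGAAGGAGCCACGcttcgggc
HSP90B1, chr12:103930313-103930347, plus strand: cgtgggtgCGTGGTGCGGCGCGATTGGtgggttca
XBP1, chr22:28800595-28800629, minus strand: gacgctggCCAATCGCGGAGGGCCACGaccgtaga
CALR, chr19:12938376-12938410, plus strand: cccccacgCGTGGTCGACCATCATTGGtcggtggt
CANX, chr5:179698770-179698804, plus strand: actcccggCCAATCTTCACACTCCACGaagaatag
CRELD2, chr22:49918546-49918580, plus strand: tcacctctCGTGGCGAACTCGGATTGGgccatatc
HERPUD1 (ERSE-II), chr16:56932017-56932043, plus strand: ggacgccgATTGGGCCACGttgggaga

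HSP90B1 was the 1 member with 2 ERSE stretches in its window, on opposite strands. ERO1B was the seventh member with an ERSE, and HYOU1 and SDF2L1 held an ERSE-II as HERPUD1 did. EDEM1 and ERN1, which also differed between groups, held none of these elements in the 250 bases before their starts. A match of letters describes the sequence and does not show that a factor binds there.

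Library totals ran from 1337028 to 9145399 counts, with DMSO control 3 and zinc protoporphyrin 1 the shallowest. The smallest count of any member in any library was 10 (ERO1B), above the floor of 3 counts, which corresponds to 0.337 to 2.26 CPM (counts scaled to 1e+06 per library). Read counting alone sets this floor, since the reads carry no molecular identifiers. The libraries also differed in a trend with transcript length, within groups as well as between them. Each library's deviation from the mean of all 12 was correlated with the longest annotated transcript, across genes with mean log2 CPM above 3. The Spearman correlation ran from -0.54 (tin protoporphyrin 1) to 0.57 (zinc protoporphyrin 3). It was 0.44, 0.19 and -0.46 in DMSO and -0.10, -0.47 and -0.45 with HPPE. With zinc protoporphyrin it was 0.22, 0.38 and 0.57, and with tin protoporphyrin -0.54, 0.52 and -0.18. Of 11 noradrenergic neuroblastoma markers, 10 were above 1 CPM in all 12 libraries. None of 5 leukocyte and none of 3 hepatocyte markers was, and 2 of the leukocyte markers were at 0 in all 12. Of 4 epithelial markers, 1 was above 1 CPM in all 12 libraries, KRT18, with a mean of 9.07 CPM over them. Of 8 mesenchymal markers, 7 were above 1 CPM in all 12 libraries, with a summed level of 738 to 838 CPM in DMSO, 898 to 924 with HPPE, 835 to 934 with zinc protoporphyrin and 960 to 1001 with tin protoporphyrin. Their part in the member results was not tested. In these bulk libraries, a change in RNA per cell and a change in the share of cells that hold it cannot be told apart.

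Per kilobase of longest transcript, chaperones and disulfide isomerases held the highest levels among the members in the DMSO control. The calcium-binding chaperone CALR (calreticulin) stood at 294 CPM per kilobase, HSP90B1 (GRP94) at 192, the disulfide isomerase P4HB at 145 and the membrane-bound chaperone CANX (calnexin) at 139. HSPA5 (BiP), the ER's HSP70, stood at 76.8 CPM per kilobase, and XBP1 at 25.5. Of the sensors, ATF6 stood at 14.2 CPM per kilobase, near the chaperone SDF2L1 at 12.8, while ERN1 at 5.13 and EIF2AK3 at 5.09 were below every other member but one. That one was the oxidase ERO1B, at 1.92.

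HPPE was the only compound with members called higher than in DMSO. Against DMSO, 4 of the 34 rose (HSPA5, HSP90B1, XBP1 and EDEM1) and none fell. Of these 4, only HSPA5 and HSP90B1 were also called higher with HPPE than with zinc and with tin protoporphyrin. Calls are at an adjusted p under 0.05 by edgeR's quasi-likelihood test with Benjamini-Hochberg adjustment over all 16366 genes tested, of which 2.57% were called higher and 1.47% lower. In 14 members every HPPE library was above every DMSO library and in 2 every one was below, against 11.9% and 9.44% of all genes. The median log2 fold change was 0.21 over the members and 0.02 over all genes tested, and 25 of 34 members had a positive estimate, against 52.3% of all genes. An unadjusted p under 0.05 was reached by 16 members, against 17.7% of all genes. The count of 4 fell to 1, HSPA5, without DMSO control 1 or 2 or any 1 HPPE library and to 2 without tin protoporphyrin 3, and it was 7 without DMSO control 3, where 3.33% of all genes were called higher. With HPPE 2 and HPPE 3, the closest replicate pair, summed as 1 sample the count was 1, HSPA5. Where the count was 1, 1.27% to 1.82% of all genes were called higher, and without tin protoporphyrin 3 it was 2.09%. In each of the 3 HPPE libraries 25 members lay above the DMSO mean. In the zinc protoporphyrin libraries the number was 14, 11 and 7, and in the tin protoporphyrin libraries 20, 12 and 16. Summed over the 34 members, the level was 4644 to 4727 CPM in DMSO and 5238 to 5501 with HPPE. It was 4045 to 4441 with zinc protoporphyrin and 4500.2 to 4658 with tin protoporphyrin. The HPPE range lay above all others and the zinc protoporphyrin range below all others, while the DMSO and tin protoporphyrin ranges overlapped.

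**Figure D1:**
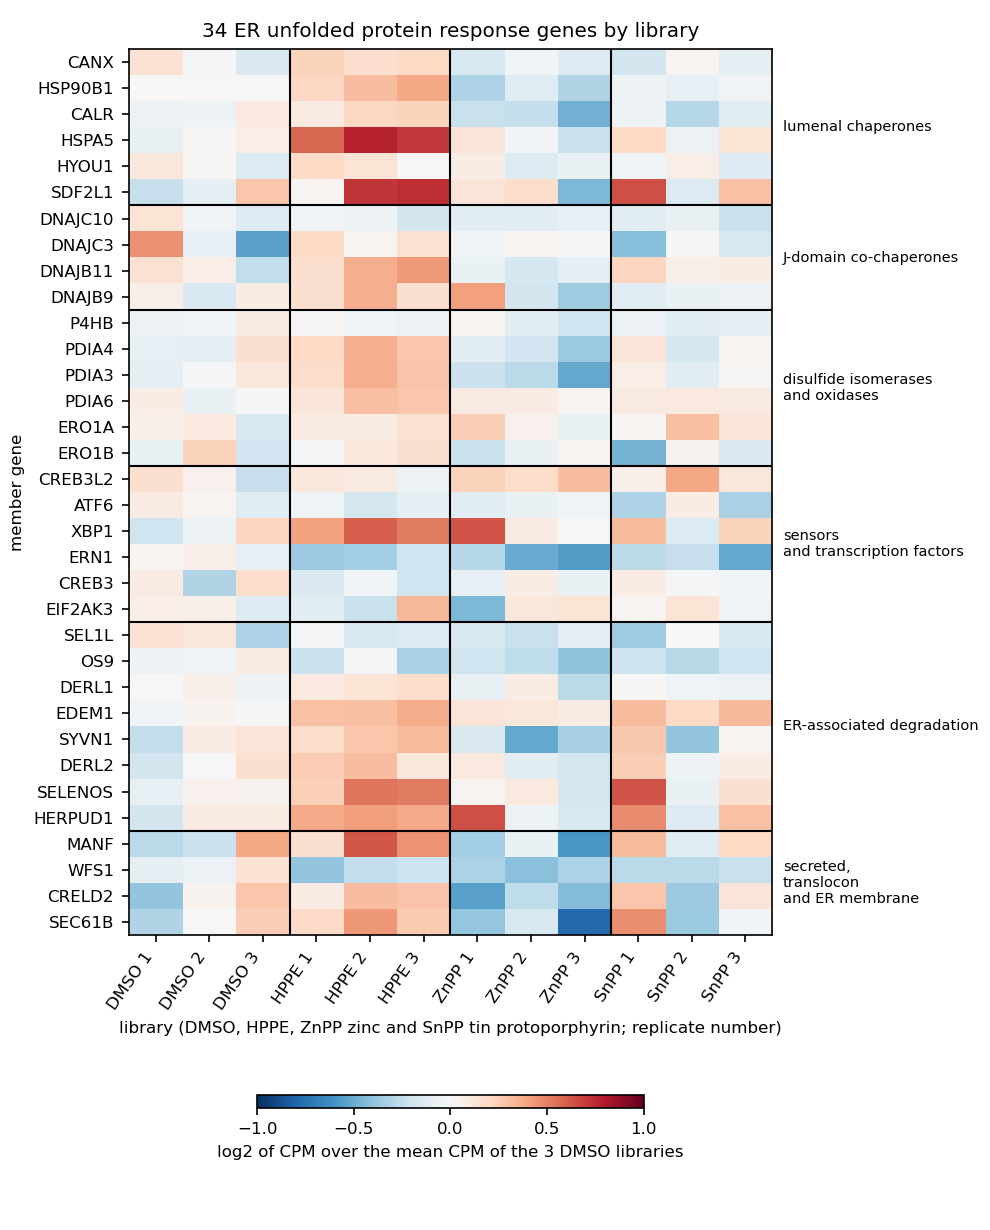
Each row is 1 of the 34 genes and each column 1 of the 12 libraries, grouped by treatment. Color gives the log2 ratio of CPM to the mean CPM of the 3 DMSO libraries, and rows are grouped by role. HSPA5 is strongly red in all 3 HPPE columns, SDF2L1 in HPPE 2, HPPE 3 and tin protoporphyrin 1, ERN1 is blue in all 9 compound columns, and short genes such as SEC61B and MANF vary between libraries of 1 group.

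The lumenal chaperones bind unfolded chains in the ER. HSPA5 (ENSG00000044574.9) encodes BiP, the chaperone that also holds the sensors inactive until unfolded protein draws it away. Its level was 284, 302 and 314 CPM in the DMSO libraries, 447, 511 and 491 with HPPE, 328, 294 and 258 with zinc protoporphyrin and 345, 287 and 330.3 with tin protoporphyrin. All 3 HPPE libraries were above all 9 others, and the other groups overlapped one another. The mean rose from 300.1 ± 14.8 to 483 ± 32.8 CPM with HPPE (SD, n = 3 each), a log2 fold change of 0.69 ± 0.10 (SE; adjusted p = 0.000348 by edgeR's quasi-likelihood test with Benjamini-Hochberg adjustment). This call held under all 22 alternative settings, with adjusted p up to 0.00473. The estimates for zinc protoporphyrin (-0.04 ± 0.10) and tin protoporphyrin (0.10 ± 0.10) did not pass the test, and their 95% intervals, -0.25 to 0.17 and -0.10 to 0.31, lay below the HPPE estimate.

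HSP90B1 (ENSG00000166598.16) encodes GRP94, the ER's HSP90, which folds integrins and Toll-like receptors among other clients. It stood at 581, 582 and 581 CPM in DMSO, 672, 721 and 759 with HPPE, 469.8, 536 and 473 with zinc protoporphyrin and 562, 548 and 568 with tin protoporphyrin. The HPPE libraries were the highest of the 12, and the zinc protoporphyrin libraries the lowest. The rise with HPPE was small, 0.30 ± 0.08 on the log2 scale (1.23-fold; adjusted p = 0.0396 by edgeR's quasi-likelihood test). The call rested on a narrow margin: it held under 9 of 22 alternatives and was lost without DMSO control 1 or 2, any 1 HPPE library, zinc protoporphyrin 1 or 3, or tin protoporphyrin 3, with an estimate of 0.27 to 0.34 over all 22 and an adjusted p up to 0.195. The HPPE call was also lost with HPPE 2 and 3 summed as 1 sample. With zinc protoporphyrin the estimate was -0.24 ± 0.08 and its adjusted p 0.133.

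Of the other 4 lumenal chaperones, none passed the test against DMSO with any compound. The estimates with HPPE were 0.18 ± 0.09 for CALR, 0.19 ± 0.09 for CANX, 0.11 ± 0.09 for HYOU1, a large HSP70 relative that exchanges nucleotide on BiP, and 0.59 ± 0.24 for SDF2L1, a partner of the BiP co-chaperones. SDF2L1 was scarce, at 8.06 to 18.4 CPM across the 12 libraries, and its groups overlapped. With zinc protoporphyrin, CALR was at 481, 474 and 401 CPM, below the DMSO values of 539, 541 and 600.4. That difference, -0.31 ± 0.09, missed the threshold (adjusted p = 0.0894). Summed over the 6 chaperones, the HPPE libraries held 2717 to 2863 CPM, the DMSO libraries 2279 to 2345, the tin protoporphyrin libraries 2180.1 to 2240.04 and the zinc protoporphyrin libraries 1929 to 2129, ranges that did not overlap.

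**Figure D2:**
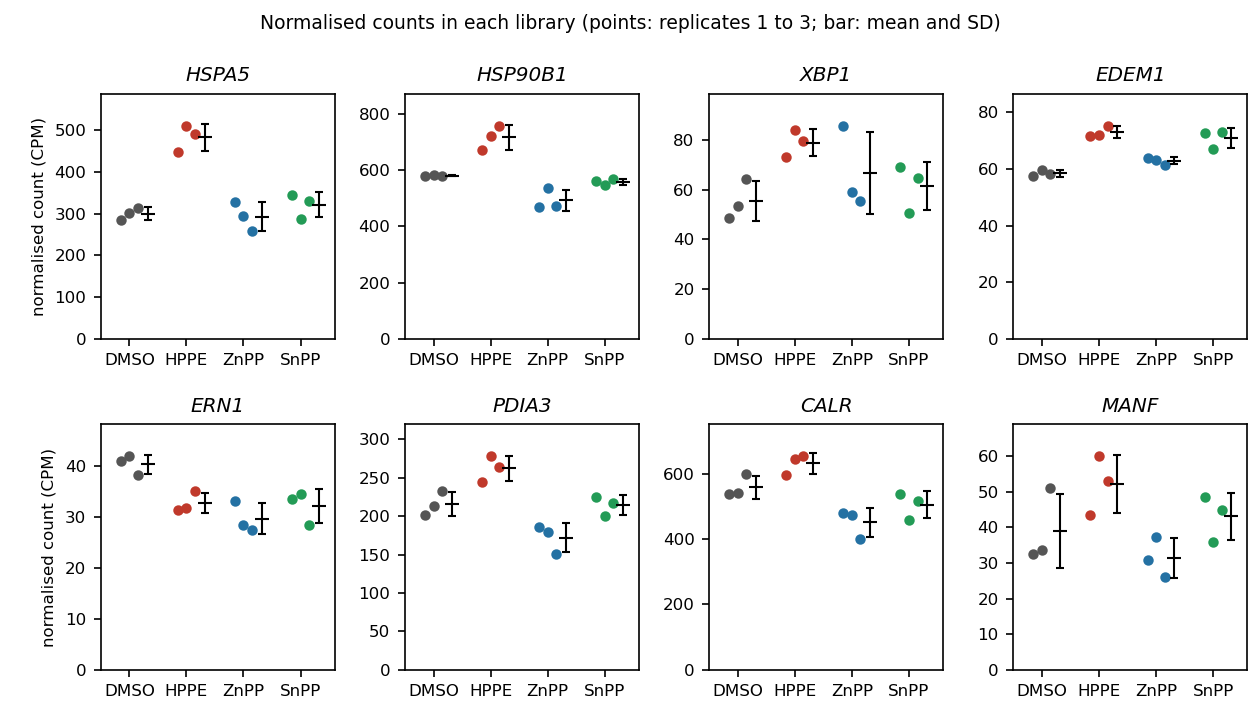
Points are normalized counts (CPM, linear axis from 0) of 8 members in each of the 12 libraries, with the group mean and SD beside them (n = 3). HSPA5 separates the HPPE group from the other groups, ERN1 separates the DMSO control from all 3 compounds, and the group means of PDIA3 and CALR are highest with HPPE and lowest with zinc protoporphyrin.

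The J-domain co-chaperones recruit BiP to its clients and start its ATP cycle. None of the 4 passed the test against DMSO with any compound. DNAJB11 (ERdj3) was at 42.1, 39.7 and 31.9 CPM in DMSO and at 42.3, 48.7 and 51.0 with HPPE. These groups did not overlap, though DMSO control 1 and HPPE 1 nearly met, and the log2 fold change was 0.26 ± 0.11 (adjusted p = 0.211). DNAJB9 (ERdj4) had an estimate of 0.26 ± 0.15 with HPPE, while DNAJC3 (p58IPK), an inhibitor of PERK, had 0.04 ± 0.16 and DNAJC10 (ERdj5), a disulfide reductase, -0.10 ± 0.08. DNAJC3 varied most among the DMSO libraries, at 67.5, 46.5 and 33.8 CPM. With both protoporphyrins together these 4 genes gave estimates from -0.27 to 0.07.

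The disulfide isomerases and oxidases form and rearrange disulfide bonds, and none of the 6 passed the test against DMSO. With HPPE, 3 isomerases had every library above every DMSO library. PDIA3 (ERp57), which works with CALR and CANX on glycoproteins, stood at 202, 213 and 232 CPM in DMSO, 245, 278 and 264 with HPPE, 186, 179.5 and 151 with zinc protoporphyrin and 226, 199.7 and 217 with tin protoporphyrin. Its estimate was 0.29 ± 0.09 with HPPE (adjusted p = 0.0898) and -0.33 ± 0.09 with zinc protoporphyrin (adjusted p = 0.0754). Reads of the near-identical pseudogene PDIA3P1 amounted to 6.53% of the PDIA3 count, and how shared reads were counted is not given in the sources used here. PDIA4 (ERp72) gave 0.29 ± 0.10 and PDIA6 (P5) 0.23 ± 0.08 with HPPE. P4HB (PDI), the most abundant of the group, ERO1A and ERO1B, the oxidases that recharge it, lay between -0.03 and 0.07.

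Among the sensors and transcription factors, XBP1 rose with HPPE and ERN1 fell with zinc protoporphyrin. XBP1 (ENSG00000100219.16) stood at 48.4, 53.6 and 64.4 CPM in DMSO, 73.3, 84.1 and 79.5 with HPPE, 85.8, 58.9 and 55.5 with zinc protoporphyrin and 69.0, 50.5 and 64.7 with tin protoporphyrin. The HPPE libraries were all above the DMSO libraries, but the highest value of the 12 was that of zinc protoporphyrin 1, the shallowest library. The rise with HPPE was 0.56 ± 0.14 on the log2 scale (1.47-fold; adjusted p = 0.037 by edgeR's quasi-likelihood test). It held under 12 of 22 alternatives and was lost without DMSO control 1 or 2, any 1 HPPE library, zinc protoporphyrin 2 or tin protoporphyrin 3, with estimates from 0.46 to 0.63 over all 22 and an adjusted p up to 0.260. The HPPE call was also lost with HPPE 2 and 3 summed as 1 sample. The estimates with zinc and tin protoporphyrin were 0.22 ± 0.15 and 0.19 ± 0.14. Compared directly, XBP1 with HPPE did not pass edgeR's quasi-likelihood test against either protoporphyrin. The differences were 0.33 against zinc (adjusted p = 0.118) and 0.36 against tin protoporphyrin (adjusted p = 0.240). Reads of the pseudogene XBP1P1 came to 1.27% of the XBP1 count.

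ERN1 (ENSG00000178607.17) encodes IRE1α, the kinase and endoribonuclease that splices XBP1 mRNA. It stood at 41.0, 42.0 and 38.3 CPM in DMSO, 31.4, 31.9 and 35.1 with HPPE, 33.1, 28.5 and 27.4 with zinc protoporphyrin and 33.6, 34.5 and 28.4 with tin protoporphyrin. All 9 libraries of treated cells were below all 3 DMSO libraries. The estimates were -0.51 ± 0.11 with zinc protoporphyrin, -0.33 ± 0.11 with HPPE and -0.34 ± 0.10 with tin protoporphyrin. Only the first passed the test (adjusted p = 0.0239, against 0.0963 and 0.106, by edgeR's quasi-likelihood test), and the compounds did not pass the test against one another (zinc against tin protoporphyrin -0.17, 95% interval -0.39 to 0.06). The 3 estimates share the same DMSO libraries. The zinc protoporphyrin call held under 17 of 22 alternatives. It was lost without DMSO control 1 or 2 or without zinc protoporphyrin 2 or 3, where the adjusted p was up to 0.184, and the estimates stayed between -0.59 and -0.46.

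The other sensors did not pass the test with any compound. ATF6 was at 113, 109 and 98.3 CPM in DMSO, 104, 94.4 and 100.1 with HPPE, 99.4, 102 and 104 with zinc protoporphyrin and 86.3, 112 and 85.2 with tin protoporphyrin. EIF2AK3 was at 24.7, 24.6 and 21.7 CPM in DMSO, 22.0, 20.3 and 29.8 with HPPE, 17.3, 25.6 and 26.0 with zinc protoporphyrin and 24.1, 26.0 and 23.1 with tin protoporphyrin. For both genes every treated group overlapped the DMSO group, and the largest estimate was that of ATF6 with tin protoporphyrin, -0.19 ± 0.10. CREB3 and CREB3L2, membrane-bound transcription factors that are cut as ATF6 is, had estimates of -0.07 ± 0.12 and 0.03 ± 0.10 with HPPE. CREB3L2 was at 155, 149.6 and 163 CPM with zinc protoporphyrin, above the DMSO values of 148, 136 and 112, without passing the test (0.22 ± 0.10, adjusted p = 0.274).

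ER-associated degradation (ERAD) recognizes misfolded proteins, moves them back to the cytosol and marks them with ubiquitin. EDEM1 (ENSG00000134109.11), a mannosidase-like protein that directs misfolded glycoproteins into this route, rose with HPPE. It stood at 57.4, 59.8 and 58.1 CPM in DMSO, 71.5, 72.1 and 75.4 with HPPE, 64.0, 63.2 and 61.5 with zinc protoporphyrin and 72.8, 66.9 and 73.1 with tin protoporphyrin. Every treated library was above every DMSO library, with the zinc protoporphyrin libraries nearest to them. The log2 fold change was 0.32 ± 0.08 with HPPE (1.24-fold; adjusted p = 0.0260), 0.28 ± 0.08 with tin protoporphyrin (adjusted p = 0.0708) and 0.10 ± 0.08 with zinc protoporphyrin (adjusted p = 0.532), all by edgeR's quasi-likelihood test. The HPPE call held under 13 of 22 alternatives and was lost without DMSO control 1 or 2 or any 1 HPPE library (adjusted p up to 0.167), as well as in DESeq2 (adjusted p = 0.0710), with estimates from 0.29 to 0.38 throughout. The HPPE call was also lost with HPPE 2 and 3 summed as 1 sample. HPPE and tin protoporphyrin differed by 0.04 (95% interval -0.11 to 0.19).

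The other 7 ERAD members did not pass the test against DMSO. With HPPE, every library was above every DMSO library for HERPUD1, which assembles the ligase complex (0.41 ± 0.17), for SELENOS, a selenoprotein of the channel (0.44 ± 0.16), for the ubiquitin ligase SYVN1 (HRD1; 0.28 ± 0.14) and for the channel protein DERL1 (0.12 ± 0.09). DERL2, a relative of DERL1, gave 0.27 ± 0.11 with overlapping groups. The ligase's scaffold SEL1L and the lectin OS9 pointed the other way, at -0.13 ± 0.11 and -0.16 ± 0.09. Zinc protoporphyrin 1 and tin protoporphyrin 1 stood out for some of these genes: HERPUD1 was at 33.9 CPM in the former, against 20.8 and 19.4 in the other zinc protoporphyrin libraries, and SELENOS at 37.6 in the latter, against 23.2 and 27.1. OS9 was below every DMSO library in all 3 zinc and all 3 tin protoporphyrin libraries (-0.29 ± 0.09 and -0.22 ± 0.09), with adjusted p of 0.101 and 0.238.

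Of the remaining 4 members, none passed the test against DMSO. MANF, a secreted protein first known as a neurotrophic factor and retained in the ER by BiP, was at 32.4, 33.5 and 51.0 CPM in DMSO and 43.6, 60.0 and 53.2 with HPPE. The groups overlapped through DMSO control 3, the second shallowest library, and the estimate was 0.53 ± 0.17 (adjusted p = 0.105). CRELD2, another secreted ER stress protein, and SEC61B, a subunit of the translocation channel, had estimates of 0.30 ± 0.17 and 0.38 ± 0.21 with HPPE. WFS1 (wolframin), a membrane protein of the ER, was at 35.2, 36.0 and 41.5 CPM in DMSO, 28.6, 31.7 and 32.6 with HPPE, 30.1, 28.1 and 30.2 with zinc protoporphyrin and 31.2, 31.2 and 32.1 with tin protoporphyrin. Like ERN1, it was lower in all 9 treated libraries than in any DMSO library, but no estimate (-0.25, -0.32 and -0.22) passed the test.

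**Figure D3:**
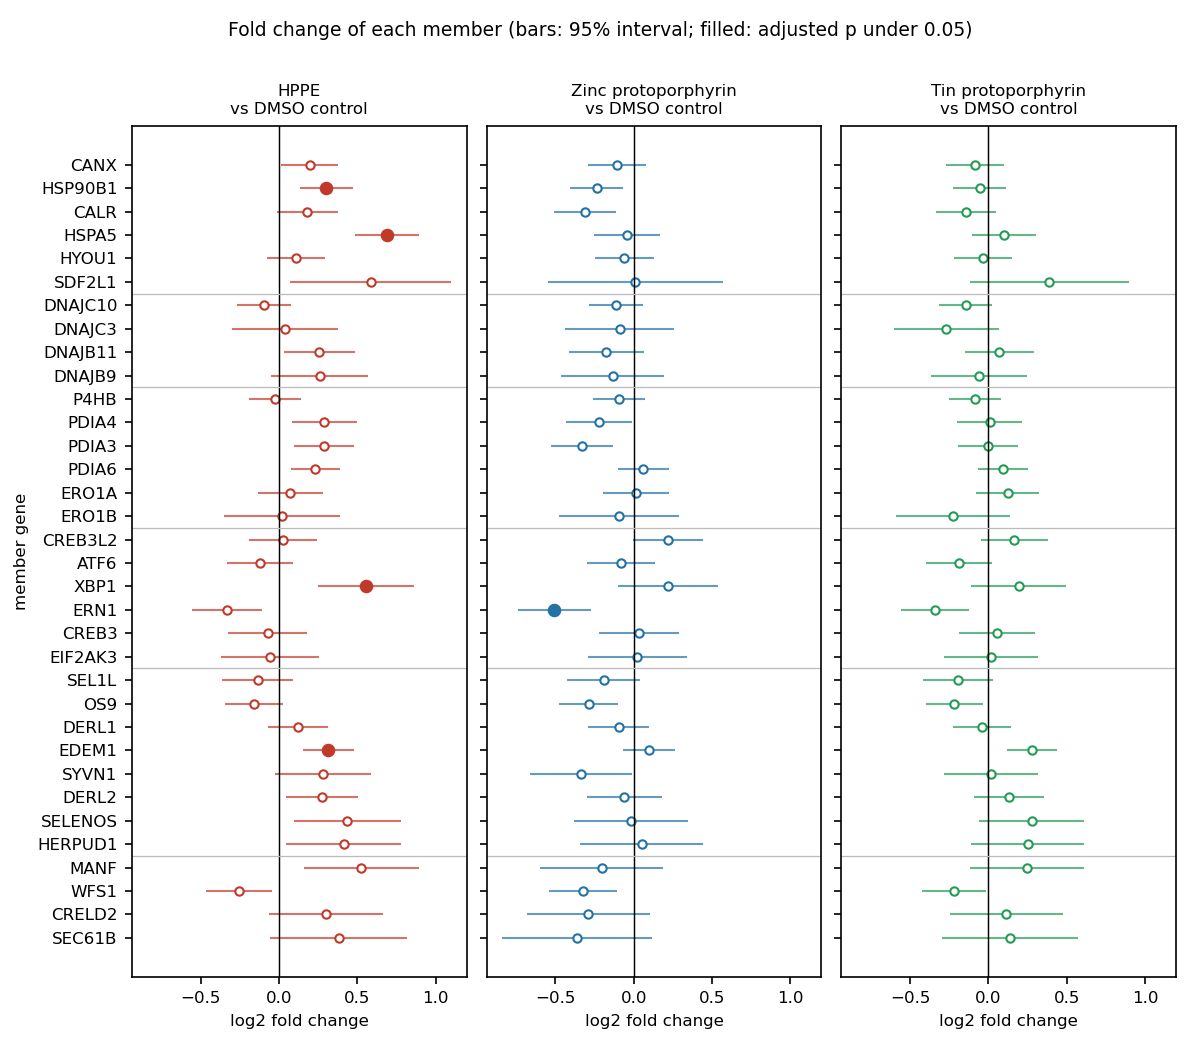
Log2 fold changes of the 34 members against the DMSO control with 95% intervals, 1 panel per compound and genes grouped by role. Filled points passed the test (adjusted p under 0.05), which are 4 genes with HPPE and ERN1 with zinc protoporphyrin. Most points lie right of 0 with HPPE (25 of 34) and left of 0 with zinc protoporphyrin (25 of 34).

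With zinc protoporphyrin, no member rose and 1, ERN1, fell, against 1.84% and 0.415% of all genes called higher and lower. The median log2 fold change was -0.09 over the members and -0.00382 over all genes tested. Of the 34 estimates 9 were positive, and 8 members had an unadjusted p under 0.05 (18.6% of all genes). In 7 members, all zinc protoporphyrin libraries were below all DMSO libraries (10.4% of all genes), and in 2 members above (11.6%). The count of members that fell was 0 without DMSO control 1 or 2 or zinc protoporphyrin 2 or 3, and 3 without tin protoporphyrin 2, where 1.33% of all genes were called lower. Where the count was 0, 0.00588% to 0.183% of all genes were called lower. The 7 below all DMSO libraries were CALR, HSP90B1, PDIA3, PDIA4, OS9, WFS1 and ERN1. With tin protoporphyrin, edgeR and DESeq2 called no member in either direction, against 1.9% and 0.379% of all genes called higher and lower by edgeR, and 4 members had an unadjusted p under 0.05 (14.7% of all genes). DESeq2 gave 3 such members. Without tin protoporphyrin 2, 1 member was called higher and 2 lower, against 2.31% and 1.40% of all genes. In 2 members every tin protoporphyrin library was above every DMSO library (10.3% of all genes), and in 4 below (7.6%). The median was 0.01 over the members and over all genes.

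Zinc and tin protoporphyrin, which differ in the metal, were compared directly at the same dose and time. No member passed the test between them in edgeR or in DESeq2, while 9 had an unadjusted p under 0.05 in edgeR, all 9 lower with zinc, against 13.3% of all genes, and 7 in DESeq2. In 6 members every zinc library was below every tin library (6.38% of all genes), and in 0 above (6.56%). Of all genes, 0.00611% were called higher and 0 lower. The estimates had a median of -0.11 and ran from -0.50 (SEC61B, 95% interval -0.95 to -0.05) to 0.18 (DNAJC3, -0.16 to 0.52), and 8 of 34 were positive. For HSPA5 the difference was -0.14 (-0.35 to 0.06), for XBP1 0.03 (-0.27 to 0.33) and for PDIA3 -0.33 (-0.52 to -0.13, adjusted p = 0.353). These intervals leave room for differences in either direction for HSPA5 and XBP1, so they do not show that the compounds act alike. Tin protoporphyrin 2 bore on this result: without it 5 members were called lower with zinc and none higher, while the calls over all 16909 genes then tested rose to 676 lower and 777 higher. Its chi-square against tin protoporphyrin 1 was 17.3 per gene, the largest of any replicate pair. This measure also grows with read depth, so it does not rank the pairs by how much they differ. The 2 tin libraries held 8329735 and 9145399 counts. DMSO control 1 and 3 gave 6.68, with only 1514595 counts in DMSO control 3.

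HPPE was set against each protoporphyrin at the same dose and time. Against zinc protoporphyrin 11 of 34 members were higher and none lower, where 6.44% and 6.26% of all genes were called. In 17 members every HPPE library was above every zinc protoporphyrin library, against 19% of all genes, and in 1 below, against 17.7%. An unadjusted p under 0.05 was reached by 19 members, against 32.2% of all genes. By size the 11 were SEC61B (0.74 ± 0.21), HSPA5 (0.73 ± 0.10), MANF (0.73 ± 0.18), PDIA3 (0.62 ± 0.09), SYVN1 (0.62 ± 0.15), CRELD2 (0.59 ± 0.18), HSP90B1 (0.54 ± 0.08), PDIA4 (0.51 ± 0.10), CALR (0.49 ± 0.09), DNAJB11 (0.43 ± 0.11) and CANX (0.30 ± 0.09). They are 4 chaperones, 1 co-chaperone, 2 isomerases, 1 ERAD gene and 3 of the 4 genes outside these roles, and no sensor or transcription factor. For 8 of the 11 (all but HSPA5, DNAJB11 and CANX) the zinc protoporphyrin estimate against DMSO was -0.20 to -0.36, so that the direct difference was larger than the HPPE estimate against DMSO. The calls of HSPA5, HSP90B1 and PDIA3 held under all 22 alternatives, with adjusted p up to 0.0175. The other 8 were lost under 1 to 11 alternatives: without zinc protoporphyrin 3 only 3 members were called, and without HPPE 2 or HPPE 3 only 4 and 5. The share of all genes called higher fell as well, to 0.596%, 0.643% and 1.14% in the same order. CANX, called under 11 of 22, was also lost without DMSO control 2, HPPE 1, zinc protoporphyrin 1 or 2, or tin protoporphyrin 3. Apart from HPPE 1, the same libraries decided CRELD2, called under 13. SEC61B was also lost without zinc protoporphyrin 1, and SYVN1 and DNAJB11 without zinc protoporphyrin 2. With HPPE 2 and 3 summed as 1 sample, 5 members were called higher, against 1.49% of all genes. The adjusted p of the 8 reached at most 0.260.

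Against tin protoporphyrin, 2 members were higher with HPPE and none lower, where 0.745% and 0.709% of all genes were called. They were HSPA5 (0.59 ± 0.10, adjusted p = 0.00277) and HSP90B1 (0.36 ± 0.08, adjusted p = 0.0275, by edgeR's quasi-likelihood test). HSPA5 held under all 22 alternatives. With HPPE 2 and 3 summed it was the only member called, where 0.414% of all genes were called higher. HSP90B1 held under 13 and was lost without DMSO control 2, HPPE 2 or 3, or any 1 tin protoporphyrin library, where adjusted p was up to 0.206. For 29 of 34 members the estimate was higher with HPPE, with a median of 0.16, and 11 members had every HPPE library above every tin protoporphyrin library, against 9.81% of all genes. In 1 member every HPPE library was below (10.1%), and 8 members had an unadjusted p under 0.05 (13.1%).

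Longer members tended to have lower estimates wherever HPPE was compared, and also with tin protoporphyrin against DMSO. Across the 34 members the Spearman correlation of log2 fold change with transcript length was -0.56 for HPPE against DMSO. For HPPE against zinc and tin protoporphyrin it was -0.55 and -0.39. It was -0.44 for tin protoporphyrin against DMSO, 0.05 for zinc protoporphyrin against DMSO and 0.52 for zinc against tin protoporphyrin. Across tested genes with a mean log2 CPM above 3, the HPPE values were -0.37, -0.53 and -0.31 in the same order. There, tin protoporphyrin against DMSO gave -0.17, zinc protoporphyrin against DMSO 0.35 and zinc against tin protoporphyrin 0.52. Genes are not independent replicates, and the points share the same libraries. The members' longest transcripts ran from 687 bases (SEC61B) to 20129 (DNAJC10), with a median of 3889 against 3327 for all genes. With this length trend removed from every library, 7 members were called higher with HPPE than with DMSO and 16 than with zinc protoporphyrin, 1 being called lower. Over all genes, this setting called 4.42% higher against DMSO, and 5.55% higher and 7.81% lower against zinc protoporphyrin. All 4 of the calls against DMSO were kept, and 10 of the 11 against zinc protoporphyrin. The call lost was that of the shortest member, SEC61B.

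**Figure D4:**
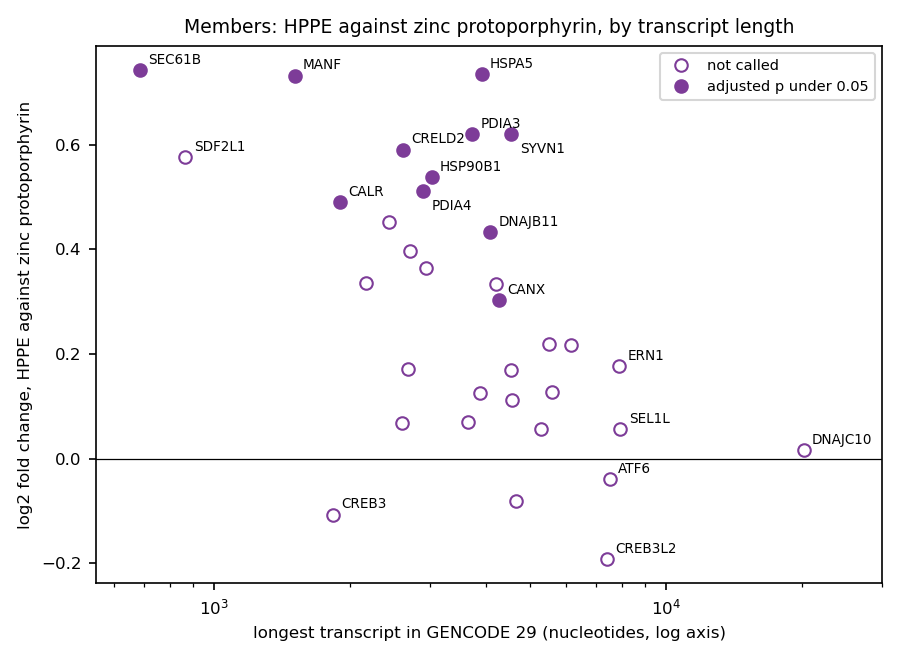
Each point is 1 of the 34 members, with its longest GENCODE transcript in nucleotides on a log axis and its log2 fold change between HPPE and zinc protoporphyrin on the linear axis. Filled points passed the test. The 11 called members are at most 4547 nucleotides long, and the highest points are SEC61B, HSPA5 and MANF.

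All 7 members with an ERSE had a positive estimate with HPPE against DMSO, with a median of 0.30. Of these, 3 were called higher (HSPA5, HSP90B1 and XBP1), against 2.57% of all genes. The 22 members whose window held neither ERSE nor ERSE-II had a median of 0.05, with 13 positive and 1 called, EDEM1. Against zinc protoporphyrin, 5 of the 7 with an ERSE were called higher (median 0.49) and 5 of the 22 without (median 0.15), against 6.44% of all genes. With zinc and tin protoporphyrin against DMSO the 7 had medians of -0.11 and -0.06. Outside the members, 7 genes with an exact ERSE were tested. With HPPE against DMSO, 3 of those had a positive estimate, 0 were called and the median was -0.17. Against zinc protoporphyrin, 1 of those was called higher. These are descriptions of small groups, with no test.

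Other genes of the ER were read from the same fit in 6 lists. With HPPE against DMSO no gene was called among 10 tested genes of the PERK and ATF4 arm (median 0.18), 21 other folding and glycoprotein quality control genes (0.02), 19 other ERAD genes (0.03), 17 genes of translocation into the ER (0.14), 6 of the ATF6 and CREB3 family and its proteases (-0.03) or 7 ER-phagy receptors (-0.04). The genes with an unadjusted p under 0.05 in these lists numbered 2, 1, 3, 4, 1 and 1, against 17.7% of all genes. With zinc protoporphyrin TMX1, a membrane-bound thioredoxin, fell (-0.39 ± 0.09, adjusted p = 0.0325), as did SEC11A, the catalytic subunit of the signal peptidase (-0.40 ± 0.10, adjusted p = 0.0486, both by edgeR's quasi-likelihood test). Most estimates in 5 of the 6 lists were negative with zinc protoporphyrin: all 17 translocation genes (median -0.13), all 6 of the ATF6 and CREB3 family (-0.22), 16 of 21 folding genes (-0.21), 18 of 19 other ERAD genes (-0.14) and 6 of 7 ER-phagy receptors (-0.16), against 5 of 10 in the PERK and ATF4 arm (0.02). In the order in which the lists were first given, 0, 9, 5, 4, 2 and 1 genes had an unadjusted p under 0.05 with zinc protoporphyrin. Of all genes, 49.5% had a positive estimate with zinc protoporphyrin, 0.415% were called lower and 18.6% had an unadjusted p under 0.05. The part of the length trend in these lists was not tested. Both calls were narrow: TMX1 held under 10 of 22 alternatives and SEC11A under 7. Each was lost without any 1 DMSO or zinc protoporphyrin library, HPPE 3 or tin protoporphyrin 3, and SEC11A also without HPPE 1 or 2 (adjusted p up to 0.129 and 0.258). With tin protoporphyrin no gene of the 6 lists was called, and 1, 5, 3, 2, 2 and 1 had an unadjusted p under 0.05 (14.7% of all genes).

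The cytosolic heat shock genes, which encode the folding machinery outside the ER, rose with HPPE. Of 12 tested, 10 were called higher than with DMSO (2.57% of all genes) and none lower (1.47%). The median log2 fold change was 0.73, and all 12 had every HPPE library above every DMSO library (11.9% of all genes). The count was 9 to 12 over the 22 alternatives. HSPA1A, an inducible HSP70, stood at 20.4, 20.7 and 25.5 CPM in DMSO and at 77.5, 71.6 and 74.1 with HPPE. The largest changes were those of HSPA1A (3.49-fold), HSPA1B (2.83-fold) and HSPA8 (1.96-fold), and each call held under all 22 alternatives. HSPA1A and HSPA1B are near-identical copies whose reads may have been split in counting, so their separate values are uncertain. No heat shock gene was called with zinc or tin protoporphyrin (medians -0.01 and -0.06), where 1 and 2 had an unadjusted p under 0.05 (18.6% and 14.7% of all genes). HSPA5, the ER member of the same HSP70 family, rose 1.61-fold; its difference from HSPA8, the constitutive cytosolic member, was not tested. This list was drawn up with earlier results of these data known, so its count is not independent evidence of a direction.

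**Figure D5:**
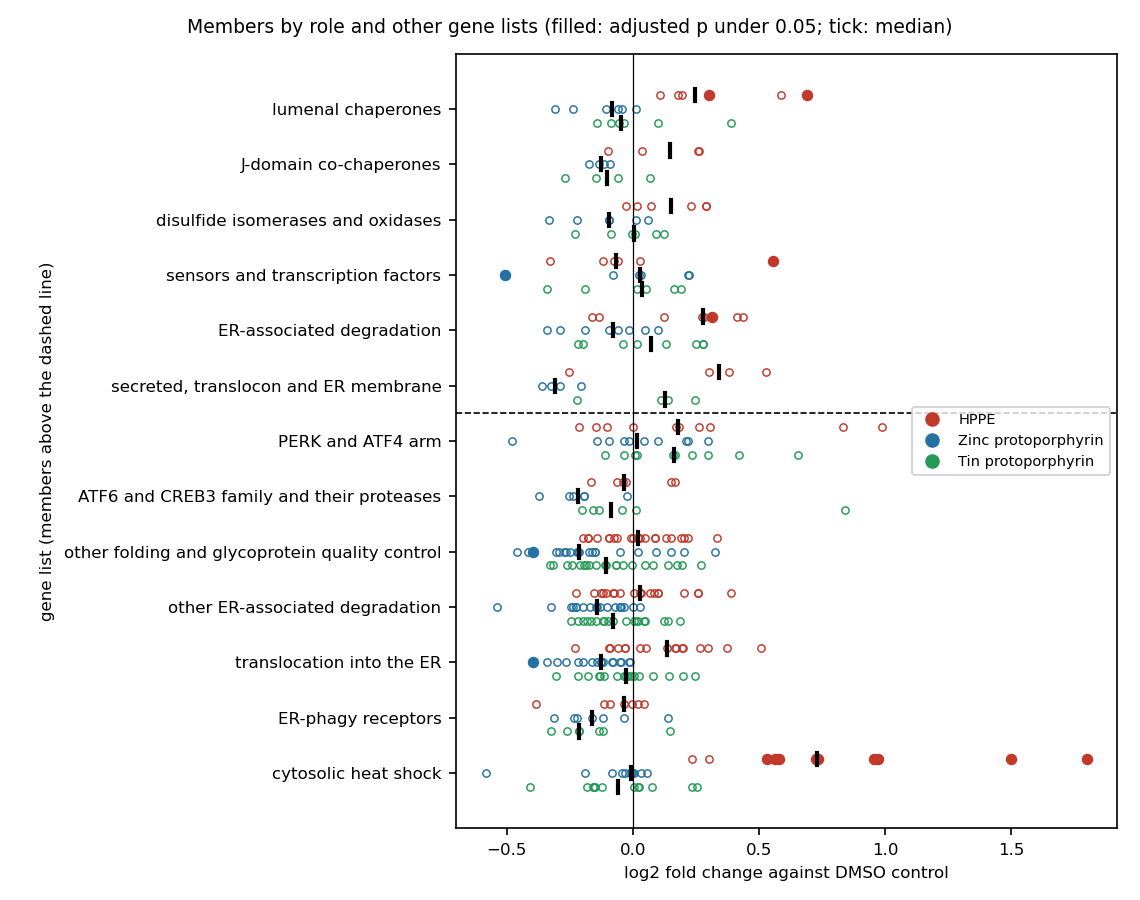
Log2 fold changes against the DMSO control for the members by role, above the dashed line, and for 7 other gene lists, below it. Each point is a gene, filled where it passed the test, and ticks mark medians. With HPPE the heat shock points reach 1.80 while the members reach 0.69, and the 6 other ER lists hold no filled HPPE point.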

How the data were processed

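RNA counts were analysed in 12 libraries of SH-SY5Y cells. The values deposited by the authors are raw gene-level counts of reads. Per the submitters' processing notes, reads were handled with fastp 0.21.1, STAR 2.7.7a and featureCounts on GRCh38. The use of strand and of multi-mapped reads is not given in the sources used here, so copies and antisense partners are uncertain. Of 60710 rows, 60481 matched a symbol. Filtering by filterByExpr left 16366 genes with 99.6% of counts. One model with 4 group means was fitted in edgeR 4.0.16 (R 4.3.3; TMM scaling, robust quasi-likelihood), 6 comparisons were tested two-sided, and p-values were adjusted by Benjamini-Hochberg over all genes. SE and 95% intervals derive from the F statistic. CPM values use TMM library sizes, and their errors are SD over 3 libraries. The procedure was tested on simulated counts in which libraries varied independently and had no length trend. That test does not cover the trends seen in these libraries. HPPE 2 and HPPE 3 were the closest replicate pair (chi-square of 1.11 per gene) and were counted separately. The chi-square is scaled to the spread that read sampling alone gives, and this pair lay near that spread. Whether these libraries came from separate cultures is not stated. Members and lists were chosen with earlier results of these data known. All 34 members are named by role. Members called against DMSO and the sensors are given in full, and from each other list at most the 3 largest called genes each way. Alternatives covered filters, scaling (RLE, unscaled), a replicate block, DESeq2 1.42.0, length and library-axis corrections, the compared groups alone, HPPE 2 and 3 summed, and each library left out.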

Additional observations from a re-analysis of the deposited data

How the results depend on the processing

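Counts of members called moved more than the estimates did: no called member reversed under any of 22 alternatives, and the cause of each move below was not tested. Adding an axis computed from the libraries' own deviations from their group means, which holds 52.7% of that variance, gave the most calls: HPPE against DMSO 14 higher and 2 lower, zinc protoporphyrin 1 and 11, tin protoporphyrin 2 and 4, zinc against tin protoporphyrin 10 lower, HPPE against zinc protoporphyrin 21 and 1, and HPPE against tin protoporphyrin 13 higher. Calls over all genes rose too, to 8.85% higher and 7.47% lower, 13.7% higher (with 1911 of 16366 genes lower), 7.70% and 5.79%, 6.90% lower, 18.4% and 16.4%, and 8.29% higher in the same order. With tin protoporphyrin, the 2 members called higher were near the share of all genes, while the 4 called lower were above it. Removing the length trend gave 7 higher with HPPE, 3 lower with zinc protoporphyrin, 1 higher with tin protoporphyrin, 1 lower (beside 16 higher) for HPPE against zinc protoporphyrin and 6 higher against tin protoporphyrin. Without a filter, 3 were lower with zinc protoporphyrin, 2 lower for zinc against tin protoporphyrin and 4 higher for HPPE against tin protoporphyrin. These stood against 0.866%, 0.518% and 0.428% of all genes. With HPPE 2 and 3 summed as 1 sample, 1, 5 and 1 were higher with HPPE against DMSO, zinc and tin protoporphyrin, and with the compared groups alone 1 was higher against tin protoporphyrin. The shares of all genes called higher were 1.69%, 1.49%, 0.414% and 0.575% in that order.

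No pairing by replicate number was seen in the libraries' deviations from their group means. Of 18 same-numbered pairs, 5 had deviations correlated above 0.1 (range -0.68 to 0.52), and other pairs ranged from -0.66 to 0.70. Since 1 axis held 52.7% of this variance, these correlations cannot show whether same-numbered samples were handled together. With the replicate block, 1 member was higher with HPPE against DMSO, 0 lower with zinc protoporphyrin, 7 higher for HPPE against zinc and 1 against tin protoporphyrin. The shares of all genes were 1.80%, 0.0550%, 2.38% and 0.477% in the same order.

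Leaving out 1 library gave 1 to 7 members higher with HPPE against DMSO (1 without DMSO control 1 or 2 or any HPPE library, 2 without tin protoporphyrin 3, 7 without DMSO control 3), 0 to 3 lower with zinc protoporphyrin (0 without DMSO control 1 or 2 or zinc protoporphyrin 2 or 3, 3 without tin protoporphyrin 2), 0 to 1 higher and 0 to 2 lower with tin protoporphyrin (1 and 2 without tin protoporphyrin 2), 0 to 5 lower for zinc against tin protoporphyrin (5 without tin protoporphyrin 2), 3 to 15 higher for HPPE against zinc protoporphyrin (3 without zinc protoporphyrin 3, 15 without tin protoporphyrin 2) and 1 to 2 higher against tin protoporphyrin. Without both shallow libraries, an alternative chosen after seeing the data, the counts were 6 higher, 1 lower, 0, 0, 14 higher and 2 higher in the same order. DESeq2 gave 3, 1, 0, 0, 11 and 2. For the counts above 0, the shares of all genes without the shallow libraries were 3.11%, 0.151%, 7.81% and 0.791%. In DESeq2 they were 2.17%, 0.348%, 4.69% and 0.684%. Counts per library were lowest for ERO1B (10 to 81), SDF2L1 (16 to 155) and SEC61B (18 to 209).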

Other observations

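Outside the 34 members, 15 genes held an exact ERSE in their promoter windows, and 7 of them carried enough reads to be tested. None was called with HPPE against DMSO by edgeR's quasi-likelihood test, with 3 of 7 estimates positive and a median of -0.17. SERP1, which stabilizes membrane proteins at the translocon, was called higher with HPPE than with zinc protoporphyrin (0.39 ± 0.09, adjusted p = 0.0179), and its estimate against DMSO was 0.16 ± 0.09. The ERSE in the window of ALG12, a mannosyltransferase of glycan assembly, occupies the same bases as that of CRELD2 (chr22:49918554-49918572, GRCh38.p14), which stands next to it in the opposite direction. With HPPE against DMSO the estimates were 0.30 ± 0.17 for CRELD2 and -0.17 ± 0.15 for ALG12, and neither passed the test. FICD, the enzyme that adds AMP to BiP, had -0.38 ± 0.31. These genes were named after their values were seen.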
